A study of Homo sapiens with 6 samples.

Results

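The stretch of chromosome 2 described here is chr2:219000001-224000000 (hg19) and holds the developmental genes WNT6, IHH, EPHA4 and PAX3. It was taken by position alone, as 125 of the 64919 bins of 40 kb that the CTCF siRNA map lists, with the domains that the 2 deposited lists place there. It holds the 5′ ends of 65 protein-coding genes, and the 4 named genes are members of an annotation with 20176. Hi-C counts read pairs that join cross-linked places of the genome, and a topologically associating domain (TAD) is a stretch whose parts contact each other more often than they contact their surroundings. LNCaP, an established prostate cancer cell line, received 20 nM of a pooled Non-Target siRNA (control siRNA, 2 libraries) or 20 nM of a pooled CTCF siRNA (4 libraries) and was collected at 144 h, with transfection repeated midway. Each condition is available as 1 map pooled over its libraries. Transfection was transient, and Hi-C does not measure how much CTCF remained. Since there is 1 map per condition, no value below has a replicate or a p-value, and intervals are 95% intervals that cover counting error only.

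WNT6 and its neighbour WNT10A encode secreted Wnt ligands, IHH encodes Indian hedgehog, the ligand that paces cartilage growth, EPHA4 encodes a receptor tyrosine kinase for ephrins, and PAX3 encodes a transcription factor of neural crest and muscle precursors. The domains of these genes are a textbook case of TAD boundaries: in developing limbs, rearrangements that remove or displace a boundary of the EPHA4 domain bring limb enhancers of EPHA4 into contact with WNT6, IHH or PAX3 and cause malformed digits. CTCF is a zinc finger protein that binds DNA with a fixed orientation and, together with cohesin, marks many such boundaries. These are developmental genes, and their expression in LNCaP was not measured in these libraries.

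The CTCF pool held 4 RNA sequences, shown because they are the treatment that every comparison rests on (5′ to 3′, lower case, lengths as the labels give them).
CTCF siRNA 1: gaugaagacugaaguaaug
CTCF siRNA 2: ggagaaagaagaagagua
CTCF siRNA 3: gaagaugccugccacuuac
CTCF siRNA 4: gaacagcccauaaacauag

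CTCF recognises a motif whose core can be written CCANNAG followed directly by NNGGC, where N is any base. That core was searched on both strands in the GRCh37 sequence of the boundary bin and the bin on either side, and overlapping matches were all counted. The 120 kb around the EPHA4 domain's boundary on the WNT6/IHH side held 6 matches, 2 on the plus and 4 on the minus strand. The 120 kb around the boundary on the PAX3 side held 4 matches, 2 on each strand. Another place, inside the EPHA4 gene, became a domain edge in the CTCF siRNA list, and its 120 kb held 1 match on each strand. The match on each strand nearest to each of these edges is printed, because these are the edges the results turn on, with the motif in capitals and read 5′ to 3′ on the strand given.
WNT6/IHH side, chr2:220545229-220545254, plus strand, outside protein-coding genes: cttgtgcCCAGGAGAGGGCtgcttgg
WNT6/IHH side, chr2:220564698-220564723, minus strand, outside protein-coding genes: ttaataaCCATAAGATGGCtggccgc
edge in EPHA4, chr2:222364851-222364876, plus strand, EPHA4 intron: ccaacaaCCATTAGGAGGCactgtta
edge in EPHA4, chr2:222467411-222467436, minus strand, beyond the EPHA4 5′ end and outside protein-coding genes: gggcatcCCATTAGAAGGCaatatcc
PAX3 side, chr2:222896528-222896553, plus strand, outside protein-coding genes: gaaaatcCCAAGAGACGGCcacagaa
PAX3 side, chr2:222914137-222914162, minus strand, outside protein-coding genes: ttcatgaCCAACAGGAGGCaggagac
Such matches are common. Of 4621 usable bins of chromosome 2, 56.3% held at least 1, and of 4554 windows of 3 neighbouring bins 87.8% held at least 1, 31.0% at least 4 and 12.0% at least 6. A match describes letters and is not evidence of bound CTCF.

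The CTCF siRNA map was deeper than the control map, with 3509578 against 961059 contacts on chromosome 2 (from 48.2 Mb on), a ratio of 3.65. All 125 bins of the region were usable, and their median number of contacts within the chromosome was 430 in control (196 to 1126) and 1806 in CTCF siRNA (608 to 6954). Between different bins of the region, 18858 contacts were counted in control and 90534 in CTCF siRNA. Coverage moved unevenly with the treatment: relative to the chromosome 2 median, bins of the WNT6/IHH and DES/SPEG domains gained coverage 1.97 and 2.01 times, those of the EPHA4 and PAX3 domains 1.31 and 1.16 times. The first pair of domains has a GC content of 47.5% and 52.9%, the second 39.4% and 40.1%. Over the usable bins of chromosome 2 from 48.2 Mb on it is 39.8%. Observed contacts over expected (the chromosome 2 mean at the same distance) are therefore given as counted and, wherever it matters, after iterative balancing, which gives every bin equal total coverage. The part of coverage in the results was not tested beyond this.

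After CTCF siRNA, both boundaries of the EPHA4 domain and 1 further boundary of the region were missing from the domain list, while the outer ones were still called. In control, the region had TADs of 219.06 to 220.22 Mb (WNT6, WNT10A, FEV and IHH, with 43 protein-coding 5′ ends in all), 220.22 to 220.54 Mb (13 genes, among them the muscle genes DES and SPEG), 220.54 to 222.86 Mb (EPHA4 alone) and 222.86 to 223.46 Mb (PAX3, SGPP2, which encodes a sphingosine 1-phosphate phosphatase, and an unnamed gene), followed by TADs from 223.50 and from 223.78 Mb. The EPHA4 domain was long and gene-poor. It spanned 2320 kb, with 0.431 protein-coding genes per Mb against 37.1 in the WNT6/IHH domain, and 3.74% of the 2864 control TADs were longer (median 720 kb).

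Of 6 control boundaries in the region, 3 had no CTCF siRNA boundary within 40 kb, beside 47.4% of 3475 control boundaries over all chromosomes. The region's share of missing boundaries was thus near the background. The missing ones were at 220.22, 220.54 and 222.86 Mb, and those at 219.06, 223.46 to 223.50 and 223.78 Mb were found again. The CTCF siRNA list had 7 boundaries here, of which 3 (42.9%) had a control partner, beside 63.1% of 2893 over all chromosomes.

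In the CTCF siRNA list, the domains were cut differently, and EPHA4 and PAX3 shared one. TADs ran from 219.06 to 219.42, 219.42 to 219.74, 219.74 to 220.42, 220.42 to 222.42 and 222.42 to 223.46 Mb. The 2 Wnt genes, whose 5′ ends lie in the same bin, were separated by the edge at 219.74 Mb, so that WNT6 fell in one TAD and WNT10A, FEV, IHH, DES and SPEG in the next. The edge at 222.42 Mb lay 18.9 kb inside EPHA4 (chr2:222282747-222438922, minus strand), downstream of its 5′ end. The 5′ end of EPHA4 was thereby listed with PAX3 in a TAD of 1040 kb, while most of the former EPHA4 domain was listed as a TAD of 2000 kb that also held OBSL1, INHA, STK11IP and SLC4A3. Both lists were called by the authors from maps of unequal depth, and the part of depth in these differences was not tested.

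The insulation value, computed here from the maps without use of the lists, showed what happened at each edge. It is the log2 of contacts over expected across a bin divided by contacts over expected within 400 kb on either side, so that a low value marks a barrier. At the WNT6/IHH side of the EPHA4 domain (220.54 Mb) it was -1.32 ± 0.11 (counting SD) in control and -0.17 ± 0.03 in CTCF siRNA. The value thus rose by 1.16 (0.94 to 1.38) at this edge. With balanced counts the CTCF siRNA value was -0.34, and a dip of -0.50 (balanced -0.64) remained in the CTCF siRNA map at the bin that starts at 220440001. Behind these values were 200 contacts across the bin against 353.9 expected in control, and 2503 against 1366 in CTCF siRNA. The adjoining bin at 220.56 Mb rose most of all bins in the region, by 1.51 ± 0.12, with 185 contacts across in control and 2778 in CTCF siRNA.

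On the PAX3 side (222.86 Mb) the value went from -1.34 ± 0.11 in control to 0.05 ± 0.04 in CTCF siRNA, a rise of 1.39 (1.16 to 1.63). The lowest CTCF siRNA value nearby was -0.12, at the bin that starts at 222960001. Contacts across the boundary bin went from 192 of 353.9 expected in control to 1543 of 1366 in CTCF siRNA. Neither boundary bin of the EPHA4 domain overlapped a protein-coding gene. With balanced counts the rises were 1.11 and 1.44.

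**Figure D1:**
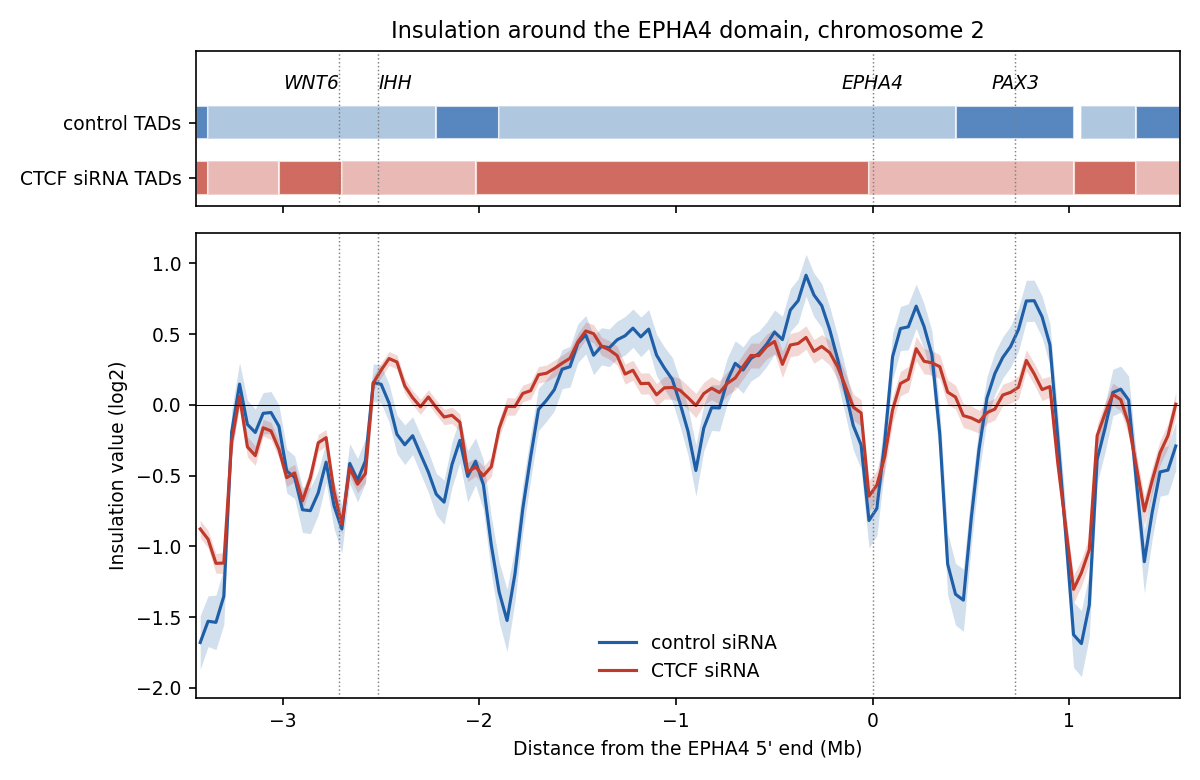
Insulation value of each 40 kb bin (vertical axis, log2) against distance from the EPHA4 5′ end (horizontal axis, Mb) in the control siRNA map (blue) and the CTCF siRNA map (red), with 95% counting bands and the deposited TADs of each condition as bars above. The deep control minima on both sides of the EPHA4 domain are not seen at the same bins in red, while the minimum at the EPHA4 5′ end and the one beyond PAX3 are present in both.

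The other boundaries of the region moved less. At 223.46 to 223.50 Mb, the far end of the PAX3 domain inside FARSB (a subunit of phenylalanyl-tRNA synthetase), control had -1.69 ± 0.12 and CTCF siRNA -1.19 ± 0.05, a rise of 0.50 (0.25 to 0.75), and a deep minimum stayed in both maps. At 219.06 Mb it was -1.53 ± 0.09 and -0.95 ± 0.03, a rise of 0.58 (0.39 to 0.77). At 220.22 Mb, in the aminopeptidase gene DNPEP, the value was low in control, -0.63 ± 0.08, and -0.02 ± 0.03 in CTCF siRNA, a rise of 0.61 (0.46 to 0.77). At 223.78 Mb, in the acyl-CoA synthetase gene ACSL3, the change of 0.11 (-0.10 to 0.32) was within counting error.

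Of the edges named only in the CTCF siRNA list, those at 222.42 and 219.74 Mb lay at minima of both maps as counted. At 222.42 Mb, the bin holding the EPHA4 5′ end, control had -0.82 ± 0.10 and CTCF siRNA -0.65 ± 0.06. The minimum was thus already there in control, and the change of 0.17 (-0.05 to 0.39) was within counting error. With balanced counts, the minimum of both maps was the next bin, which starts at 222440001, beyond the EPHA4 5′ end. It had -0.81 in control and -0.75 in CTCF siRNA, against -0.73 and -0.63 at the bin of the 5′ end. The bin of WNT6 and WNT10A (219.74 Mb) had -0.88 ± 0.09 and -0.84 ± 0.04, with a change of 0.03 (-0.15 to 0.22). The edge at 220.42 Mb, near the inhibin gene INHA and OBSL1, had -0.40 ± 0.08 and -0.44 ± 0.03. Control values fell on from there to the minimum at 220.56 Mb, whereas CTCF siRNA had a minimum of -0.50 in the next bin. At 219.42 Mb, near CNOT9 and USP37, control had -0.15 ± 0.08 and CTCF siRNA -0.31 ± 0.03, a change of -0.16 ± 0.08. What the lists showed as a moved boundary at EPHA4 was, in the insulation values, a minimum present in both maps whose neighbour at 222.86 Mb was the deeper one in control and no longer so in CTCF siRNA.

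The genes themselves lay in bins that differed in kind. IHH sat in the interior of its domain, with values of 0.15 ± 0.07 and 0.25 ± 0.03 and a change of 0.10 (-0.04 to 0.24). The bin of FEV, an ETS transcription factor of serotonergic neurons, had -0.40 ± 0.08 and -0.48 ± 0.03. The bin shared by DES, the muscle intermediate filament desmin, and SPEG, a muscle kinase, rose from -0.42 ± 0.08 to -0.07 ± 0.03. PAX3, whose bin also holds the 5′ end of the noncoding neighbour CCDC140, had 0.53 ± 0.08 in control and 0.12 ± 0.04 in CTCF siRNA. This was a fall of 0.41 (counting SD 0.088). Control values rose further past this bin, to 0.74 at the bin that starts at 223240001. The SGPP2 bin, 120 kb further on than the PAX3 bin, went from 0.62 ± 0.08 to 0.11 ± 0.04. Bins in the middle of the PAX3 domain thus lost height. The flank of the PAX3 bin towards EPHA4 takes in the flattened edge, so contacts over that edge count in the divisor. Contacts across the PAX3 bin went from 1.45 times expected in control to 1.21 in CTCF siRNA. Those within its flanks went from 1.003 to 1.11 times expected. The part of the flattened edge in these falls was not tested.

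Over all 125 bins the median change was 0.03. There were 16 bins (12.8%) that rose by at least 0.5, beside 13% of 42457 autosomal bins (from 48.2 Mb on), and 2 that fell by as much, beside 3.68%. The share of rising bins was thus near the background. Besides the 2 edges of the EPHA4 domain, another named rise was at chr2:219000001-219040000, in the bin of the chemokine receptor genes CXCR1 and CXCR2, by 0.80 ± 0.10. The named falls were at 223.24 Mb in the PAX3 domain, by 0.52 ± 0.08, and at 222.08 and 222.56 Mb in the EPHA4 domain, by 0.44 ± 0.09 and 0.39 ± 0.09.

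Set beside 2060 control boundaries of the autosomes from 48.2 Mb of each chromosome on, the 2 edges of the EPHA4 domain stood among the largest rises. A rise of at least 0.5 was found at 5 of the 6 boundaries of the region, beside 49.4% of these boundaries and 4.75% of 21703 bins in TAD interiors. One of the 5, at 223.46 to 223.50 Mb, was at the threshold, and with balanced counts 4 of the 6 passed, beside 48.9%. A rise of at least 1 was found at 2 of the 6, beside 13%. With flanks of 200 kb the WNT6/IHH side rose by 0.97 and with flanks of 800 kb the PAX3 side by 0.92, so with either flank 1 of these edges fell below that threshold. The PAX3 side ranked 50 of 2060 (37 with balanced counts) and the WNT6/IHH side 139 (173 with balanced counts). The median over all of these boundaries was 0.49. Those at 219.06, 220.22 and 223.46 to 223.50 Mb ranked 860, 811 and 1017, and the one at 223.78 Mb ranked 1676, with a smaller rise at 18.6% of boundaries. The median was 0.60 at the 1024 boundaries missing from the CTCF siRNA list and 0.37 at the 1036 found in it. Before treatment the 2 edges were not the deepest: 77.8% and 78.4% of boundaries had a higher control value, beside 92.2% for the far end of the PAX3 domain.

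**Figure D2:**
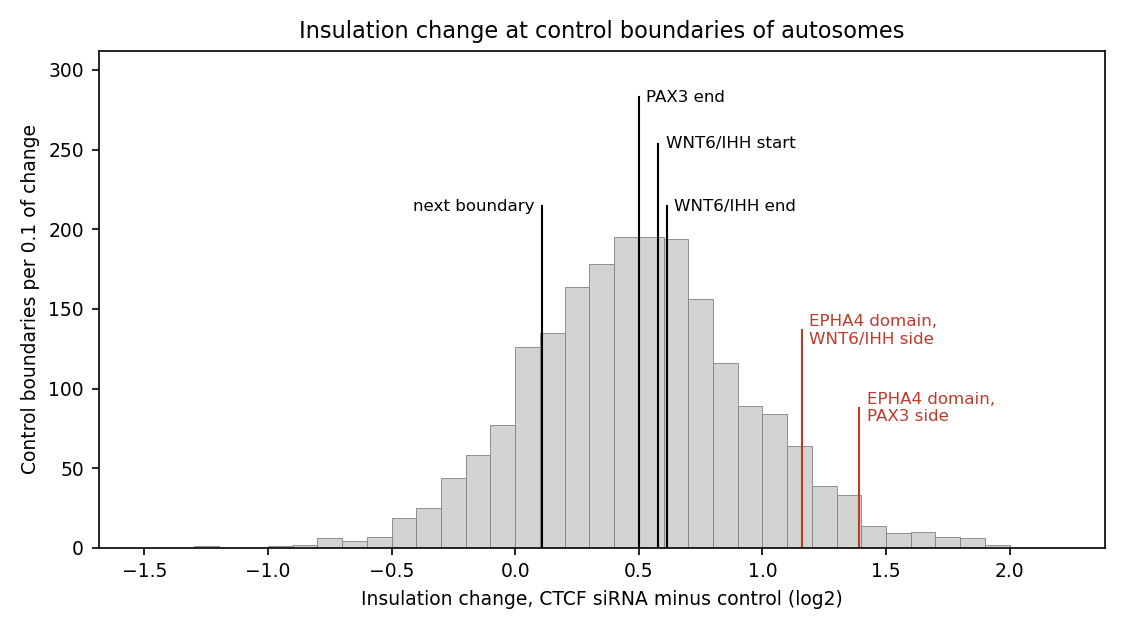
Number of autosomal control boundaries (vertical axis) by insulation change, CTCF siRNA minus control (horizontal axis, log2, steps of 0.1), over 2060 boundaries, with lines at the 6 boundaries of the region. The 2 edges of the EPHA4 domain (red) lie in the right tail at 1.16 and 1.39, and the other 4 between 0.11 and 0.61.

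Contacts over the edges missing from the CTCF siRNA list rose between the domains, with the largest value for WNT6/IHH with EPHA4. Its interval overlapped those of the other pairs across the WNT6/IHH side. In windows of 500 kb, WNT6/IHH with PAX3 rose more (1.69 against 1.58). In control, 244 contacts joined the WNT6/IHH and EPHA4 domains, 0.34 times expected (0.30 to 0.39). In CTCF siRNA there were 3183, or 1.20 times expected (1.16 to 1.24). The change was 1.81 on the log2 scale (1.63 to 2.01), a 3.52-fold rise. With balanced counts the ratio went from 0.26 to 0.61, a change of 1.24 (1.05 to 1.43), so the rise was smaller and the domains still met less often than other places at their distance.

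The DES/SPEG domain, which lies between them, followed the same course. It had 379 contacts with the EPHA4 domain in control, 0.73 times expected, and 4693 in CTCF siRNA, 2.35 times expected. The change was 1.69 (1.54 to 1.85), or 0.99 with balanced counts (0.53 to 1.05 times expected). Between the WNT6/IHH and DES/SPEG domains themselves the change was 1.15 as counted and 0.16 (0.03 to 0.29) with balanced counts.

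EPHA4 and PAX3 domains also met more often. They shared 747 contacts in control, 0.91 times expected (0.84 to 0.97), and 4235 in CTCF siRNA, 1.34 times expected (1.30 to 1.38). The change of 0.56 (0.45 to 0.68), a 1.48-fold rise, was the same size with balanced counts (0.56, from 0.74 to 1.09 times expected). In windows of 500 kb around both 5′ ends it was larger, 1.17. The coverage of these 2 domains had moved by similar factors.

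The WNT6/IHH and PAX3 domains, with 2 TADs between them, had 35 contacts in control, 0.75 times expected (0.52 to 1.04), and 344 in CTCF siRNA, 2.37 times expected (2.12 to 2.63). This was a change of 1.66 (1.16 to 2.21), and of 1.08 (0.58 to 1.62) with balanced counts. The control count is small, which sets the width of the interval.

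Among pairs of control TADs with the same number of TADs between them, the pairs across the WNT6/IHH side ranked high. Contacts rose at least 1.25-fold in 51.7% of 1752 neighbouring pairs (48.2% with balanced counts), 49.8% of 1695 pairs with 1 TAD between (45.3%) and 43.9% of 1511 pairs with 2 between (36.3%). WNT6/IHH with EPHA4 ranked 12 of 1695 (25 with balanced counts), where the median change was 0.32. DES/SPEG with EPHA4 ranked 16 of 1752 (68 with balanced counts), and WNT6/IHH with PAX3 ranked 21 of 1511 (36 with balanced counts). EPHA4 with PAX3 ranked 662 of 1752 (437 with balanced counts), so that 62.2% of pairs (75.1% with balanced counts) had a smaller change.

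**Figure D3:**
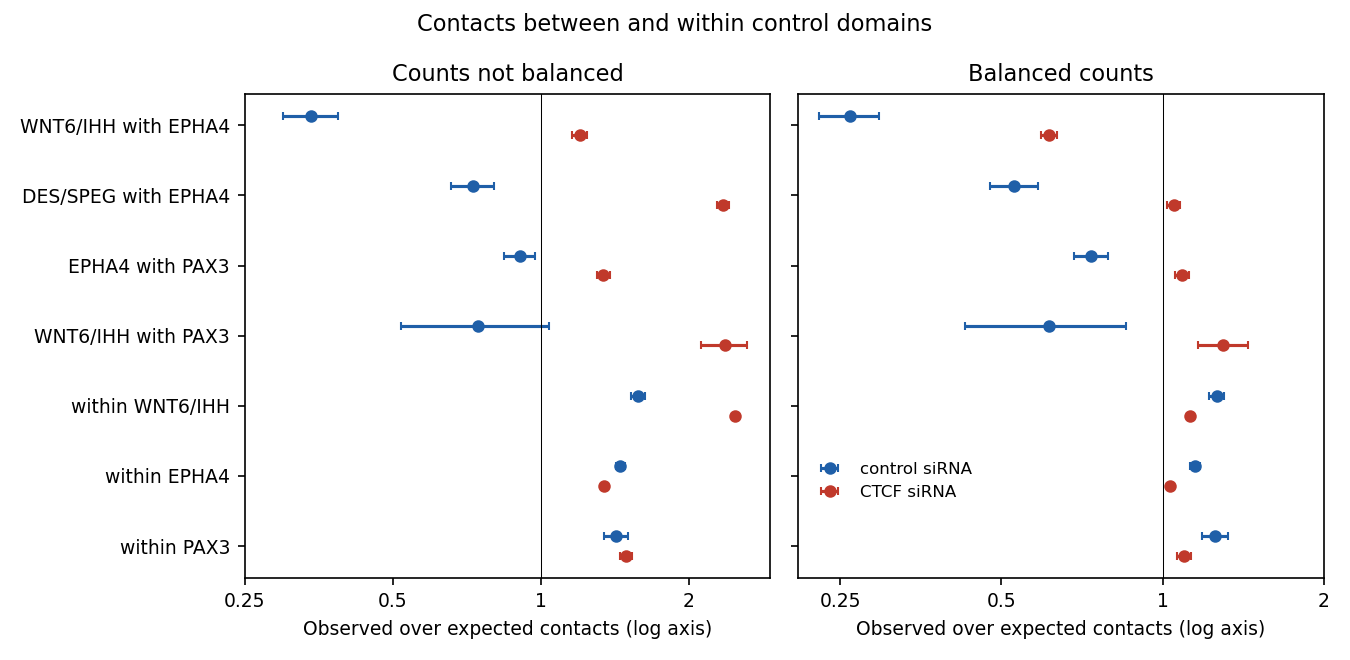
Observed over expected contacts (horizontal axis, log scale) between and within control domains, as counted (left) and with balanced counts (right), in control siRNA (blue) and CTCF siRNA (red), with 95% Poisson intervals. All 4 pairs of different domains lie further right in CTCF siRNA on both sides of the plot. The order within the WNT6/IHH domain and within the PAX3 domain turns between left and right.

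Distance separated these 2 edges. Across the PAX3 side edge, the change was 0.996 (0.71 to 1.29) for contacts over 80 to 400 kb, 0.86 (0.64 to 1.07) over 440 to 800 kb and 0.34 (0.18 to 0.51) over 840 to 1600 kb, so the rise was largest near the edge. With balanced counts the same 3 values were 1.27, 0.83 and 0.28. Across the WNT6/IHH side edge, the changes were 1.50, 2.12 and 1.76, or 0.69, 1.39 and 1.19 with balanced counts, and they persisted at long distance. Across the edge inside EPHA4, contacts over 80 to 400 kb did not move beyond counting error (-0.03, interval -0.32 to 0.26). The change over 440 to 800 kb was -0.42 (-0.61 to -0.24), or -0.26 (-0.45 to -0.08) with balanced counts. Contacts over 840 to 1600 kb fell by 0.53 (balanced, by 0.51). The authors called this edge from the same CTCF siRNA map, so these falls are not a separate observation.

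Within the EPHA4 domain, contacts fell slightly. They numbered 8554 in control, 1.45 times expected (1.42 to 1.48), and 30004 in CTCF siRNA, 1.34 times expected (1.33 to 1.36), a change of -0.11 (-0.15 to -0.08). This lay near the median of 1774 control TADs, -0.12, where 39.1% fell at least 1.25-fold and 23.3% rose by as much (0.0564% with balanced counts). Within the PAX3 domain the ratio was 1.42 and 1.49, a change of 0.06 (-0.03 to 0.15), and -0.19 with balanced counts. Within the WNT6/IHH domain it was 1.58 and 2.48, a change of 0.66 that became -0.16 (-0.21 to -0.11) with balanced counts. The direction within the WNT6/IHH domain thus depended on the treatment of coverage. The sign within the PAX3 domain did so too, though its change as counted was within counting error.

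Inside the EPHA4 domain, contacts fell most between its parts on either side of the 222.42 Mb edge. The authors called that edge from the same CTCF siRNA map, so a fall across it is not a separate observation. The part towards WNT6/IHH (220.54 to 222.42 Mb) and the part towards PAX3 (222.42 to 222.86 Mb) had 1198 contacts with each other in control, 1.87 times expected, and 2800 in CTCF siRNA, 1.13 times expected. The change was -0.72 (-0.82 to -0.62), and -0.61 with balanced counts. Within the part towards PAX3 the ratio went from 1.71 to 1.25, a change of -0.46 (-0.57 to -0.35) or -0.20 with balanced counts, and within the part towards WNT6/IHH the change was 0.03 (-0.02 to 0.07) or -0.07 with balanced counts. The part towards PAX3 moved the other way with the PAX3 domain, from 263 contacts, 0.62 times expected, to 2168, 1.32 times expected, a change of 1.09 (0.90 to 1.28) or 1.18 with balanced counts. The long part towards WNT6/IHH did not gain contacts with the PAX3 domain beyond counting error (0.11, interval -0.03 to 0.26). The intervals of these 2 parts with PAX3 do not overlap, and the part with the larger rise is the 440 kb next to the lost edge, just beyond the EPHA4 5′ end, whose bin straddles the 222.42 Mb edge and was counted in neither part.

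The far corner of the EPHA4 domain, where its first and last 5 bins meet, held more contacts than expected in control. There were 49 contacts in control, 6.71 times expected (4.97 to 8.88), and 100 in CTCF siRNA, 3.98 times expected (3.24 to 4.84), a change of -0.75 (-1.26 to -0.23) or -0.94 with balanced counts. The excess was not confined to the corner, as the 120 kb block that starts 1879 kb before the EPHA4 5′ end, next to the domain start, showed. It had 29 control contacts against 4.06 expected (balanced) with the block at the EPHA4 5′ end. With the last block inside the domain it had 17 against 4.06. The excess ran on past the domain end, with 12 against 2.31 for the block that starts 521 kb beyond the EPHA4 5′ end. The corner of the PAX3 domain went from 2.45 to 1.74 times expected, a change of -0.50 (-0.71 to -0.28). The corner of the WNT6/IHH domain had 0.996 times expected (0.67 to 1.42) in control and 1.34 times (1.14 to 1.56) in CTCF siRNA, a change of 0.43 (-0.14 to 1.04) that turned to -0.69 (-1.26 to -0.07) with balanced counts. The start of the EPHA4 domain with the end of the PAX3 domain, the corner that a fused domain would have, had 3.55 times expected in control (16 contacts) and 4.82 in CTCF siRNA (72 contacts), a change of 0.44 (-0.35 to 1.32) as counted and of -0.12 (-0.92 to 0.76) with balanced counts, both within counting error.

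**Figure D4:**
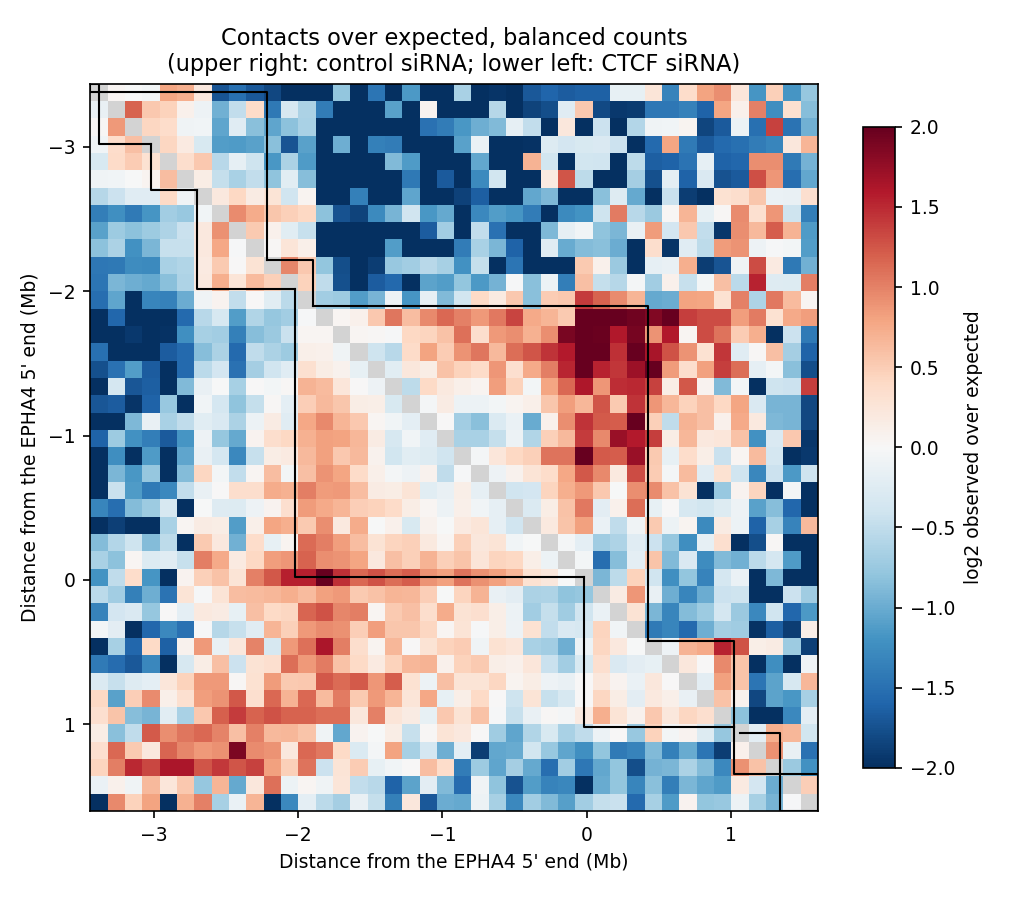
Contacts over expected with balanced counts (colour, log2) in blocks of 120 kb, against distance from the EPHA4 5′ end on both axes (Mb), with control siRNA in the upper right and CTCF siRNA in the lower left and the deposited TADs of each condition outlined. In control the square of the EPHA4 domain shows a broad excess (red) between its start and the stretch from EPHA4 to its end. This excess runs on into the PAX3 domain. The square meets a depleted (blue) field towards WNT6/IHH, and in CTCF siRNA the excess and the depletion are weaker.

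Seen from the 5′ end of each gene (its bin and the bin on either side), the ligands gained contacts with the EPHA4 domain. WNT6 had 22 contacts with the EPHA4 domain in control, 0.29 times expected (0.18 to 0.43), and 421 in CTCF siRNA, 1.47 times expected (1.33 to 1.62), a change of 2.36 (1.75 to 3.05) or 1.77 with balanced counts. IHH had 57 contacts, 0.57 times expected, and 513, 1.35 times expected, a change of 1.25 (0.85 to 1.67) or 0.85 (0.45 to 1.27) with balanced counts. With balanced counts both ligands stayed below expected in CTCF siRNA. The ratio was 0.63 (0.57 to 0.69) for WNT6 and 0.72 (0.65 to 0.78) for IHH. Contacts of WNT6 with the DES/SPEG domain changed by 0.89 as counted and by -0.11 (-0.52 to 0.33) with balanced counts.

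The EPHA4 5′ end gained contacts on both sides of its domain. It had 39 contacts with the PAX3 domain in control, 0.53 times expected (0.38 to 0.72), and 342 in CTCF siRNA, 1.18 times expected (1.05 to 1.31), a change of 1.15 (0.67 to 1.67) or 0.96 (0.48 to 1.48) with balanced counts. With the WNT6/IHH domain, in the opposite direction, it had 9 contacts (0.60 times expected) and 102 (2.09 times expected), a change of 1.79 (0.81 to 2.96) or 1.21 (0.23 to 2.38) with balanced counts. With balanced counts these CTCF siRNA ratios were 0.96 (0.86 to 1.06) with the PAX3 domain and 1.22 (0.99 to 1.48) with the WNT6/IHH domain. With its own control domain the ratio as counted went from 1.95 to 1.56, a change of -0.32 (-0.45 to -0.19). Of its contacts at 160 to 1040 kb, 32.7% (Wilson interval 28.9 to 36.8) lay on the PAX3 side in control and 38.9% (36.8 to 41.2) in CTCF siRNA. Over these distances the ratio to expected was 1.90 and 1.55 on the side away from PAX3, and 0.93 and 0.98 on the PAX3 side, so the share moved mainly through the former. Its contacts with the DES/SPEG domain were few, 13 in control (2.05 times expected) and 127 in CTCF siRNA (5.78 times expected), with a change of 1.50 (0.67 to 2.44) or 0.81 (-0.01 to 1.76) with balanced counts.

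PAX3 likewise gained contacts with the EPHA4 domain. Its 5′ end had 111 contacts with the EPHA4 domain in control, 0.70 times expected (0.58 to 0.85), and 831 in CTCF siRNA, 1.37 times expected (1.28 to 1.47), a change of 0.96 (0.67 to 1.26) or 0.73 with balanced counts. With the 440 kb part next to the lost edge the change was 1.45 (0.96 to 1.96), or 1.30 with balanced counts. With the WNT6/IHH domain it had 6 contacts (0.61 times expected) and 75 (2.45 times expected), a change of 2.01 (0.82 to 3.50) or 1.25 (0.06 to 2.74) with balanced counts. With the DES/SPEG domain, which lies nearer, it had 7 and 36 contacts, and the change of 0.66 (-0.53 to 2.07), or -0.22 (-1.41 to 1.19) with balanced counts, was within counting error. The share of PAX3 contacts on the side away from EPHA4 was 59.9% (54.9 to 64.8) in control and 52.8% (50.5 to 55.1) in CTCF siRNA.

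Direct contacts between gene windows were few in control. Between EPHA4 and PAX3 there were 6 in control, with 14.4 expected, and 65 in CTCF siRNA, with 56.6 expected. The change was 1.46 (0.26 to 2.96), and the interval with balanced counts, -0.14 to 2.55, included no change. Control held no contact between WNT6 and EPHA4, with 1.61 expected, none between IHH and EPHA4, with 1.88 expected, and none between WNT6 and PAX3, with 1.098 expected. The CTCF siRNA map held 12, 18 and 17. As ratios to expected, the control upper limits were 2.297, 1.96 and 3.36, and the CTCF siRNA ratios were 2.23 (1.15 to 3.90), 2.84 (1.68 to 4.49) and 5.06 (2.95 to 8.11). With balanced counts these limits were 1.67, 1.56 and 2.71. The CTCF siRNA ratios were then 1.06 (0.55 to 1.86), 1.71 (1.01 to 2.71) and 2.34 (1.36 to 3.75). For WNT6 with EPHA4 the balanced ratio was thus not above expected beyond counting error. The intervals of the conditions overlapped for each pair, which does not decide whether a pair changed. No fold is given because control held no contact. IHH with PAX3 had 2 contacts in control and 7 in CTCF siRNA, 1.67 and 1.88 times expected, and a change of 0.18 (-2.22 to 3.48) as counted and -0.41 (-2.81 to 2.89) with balanced counts. WNT6 with IHH, inside 1 control domain, had 93 and 415 contacts, 1.62 and 1.92 times expected, and a change of 0.24 (-0.09 to 0.58) as counted that was -0.49 (-0.82 to -0.15) with balanced counts.

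**Figure D5:**
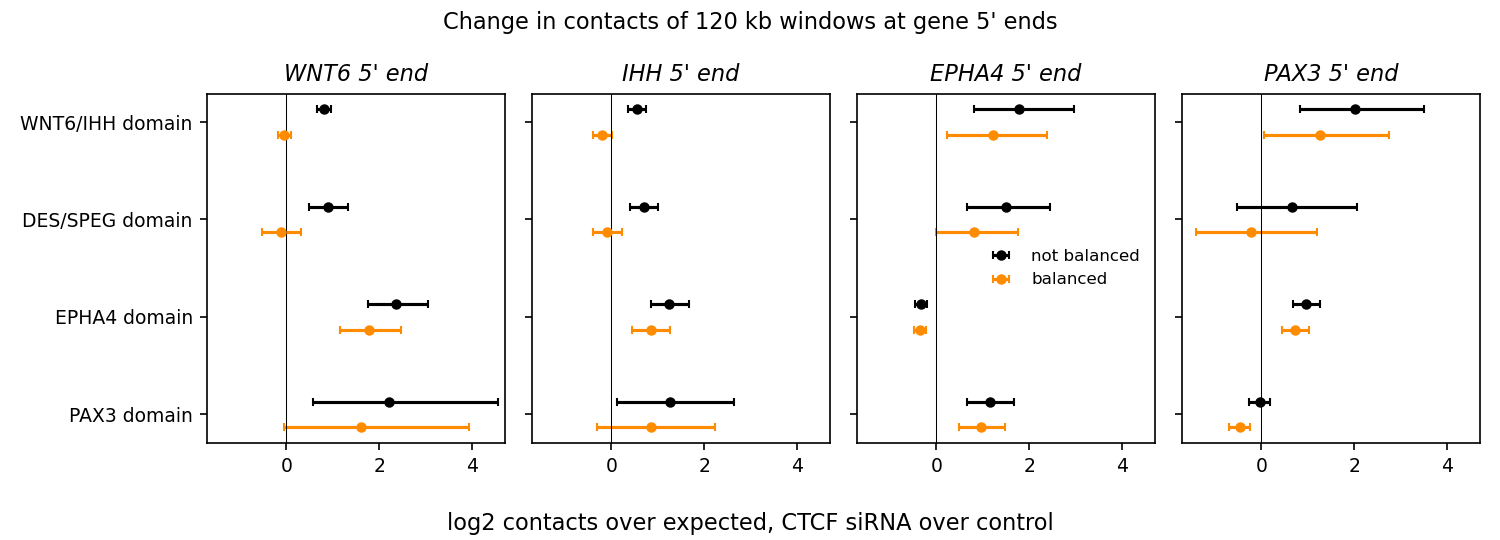
Change in contacts over expected, CTCF siRNA over control (horizontal axis, log2), of the 120 kb window at each gene's 5′ end with the 4 control domains, as counted (black) and with balanced counts (orange), with 95% exact binomial intervals. The EPHA4 window gained contacts with the PAX3 domain and with the WNT6/IHH domain and lost them with its own, and the WNT6 and IHH windows gained contacts with the EPHA4 domain.

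Contact profiles over the region, with the values of both maps joined, were compared between each gene and the protein-coding genes at least 3 bins away. They are descriptions over 222 to 230 values, in which each bin enters once per map, and the values share libraries and depth. The profile most like that of EPHA4 was that of PAX3 (Pearson r = 0.47), followed by SGPP2 (0.47). The 5′ ends of PAX3 and SGPP2 lie 725 and 850 kb from that of EPHA4, and that of SLC4A3, on the other side, 1947 kb. The part of distance in this order was not tested. For PAX3 the most similar profiles were SGPP2 (0.57) and EPHA4 (0.47). For WNT6 they were ABCB6, a porphyrin transporter gene, and ANKZF1, which share a bin (0.60), and for IHH they were DNPEP (0.63, across the 220.22 Mb edge) and CDK5R2 (0.61), a regulatory subunit gene of CDK5.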

How the data were processed

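Hi-C libraries of LNCaP were assigned to a condition by the siRNA that their labels name. According to the methods and the submitters' processing notes, the authors cut DNA with BglII, aligned reads to hg19 (Bowtie 1.1.0, SAMtools 1.2, Picard 1.121, FastQC 0.11.2), pooled the libraries of a condition, binned read pairs at 40 kb and called TADs by a hidden Markov model run on a directionality index. The deposited contact values are counts of read pairs multiplied by a correction factor per bin, not scaled for depth. From 48.2 Mb on, which includes this region, the factors are 1 and every value used was whole, so those values were taken as counts. What separates the CTCF siRNA libraries numbered as further versions of a replicate is not given in the sources used here.

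Here, bins with at least 10% of the median cis count in both maps were used. Expected contacts were the chromosome 2 mean per distance. Insulation used flanks of 400 kb (10 bins), left out the diagonal, and needed 50% of bin pairs. TAD edges at most 100 kb apart were 1 boundary, and boundaries within 40 kb were shared. Backgrounds cover 20 autosomes, with at least 20 contacts expected for a pair of TADs. Intervals are exact Poisson for ratios, exact binomial for changes, delta method for insulation and Wilson for shares, at 95%, and since PCR copies are not independent molecules they cover counting error only. Balancing ran 200 rounds. Python 3.11.15, numpy 2.4.6, scipy 1.17.1 and pandas 2.3.3 were used, and the calculations were tested on simulated data. Gene positions came from a GENCODE annotation lifted to GRCh37. A domain is named by the member genes whose 5′ ends its control TAD holds.

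The members, the gene lists and the tests were chosen with earlier results of these data known. Named were the member genes, WNT10A, CCDC140, protein-coding genes in boundary bins of the EPHA4 domain (none), the pair of genes with the most similar contact profile for each member, a fixed list of developmental and muscle genes (FEV, DES, SPEG), and the 3 bins with the largest rise and the 3 with the largest fall with at least 50 contacts expected across, at least 3 bins apart. Genes at the other edges and SGPP2 beside PAX3 were named after their values were seen.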

Additional observations from a re-analysis of the deposited data

How the results depend on the processing

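With 1 pooled map per condition the spread between libraries is unknown, and coverage, depth and siRNA cannot be told apart. No paired analysis was possible because each condition's libraries had been pooled into 1 map before deposit, and for the same reason no library could be left out. Of 39 recomputed values for 6 results with an interval, 30 lay within the interval of the value reported, 8 lay outside it and 1 changed sign. The count of 3 control boundaries found in the CTCF siRNA list was 3 under each alternative. With flanks of 800 kb the rise at the PAX3 side of the EPHA4 domain was 0.92 in place of 1.39. With windows of 500 kb around the genes, the change between WNT6/IHH and EPHA4 was 1.58 and that between WNT6/IHH and PAX3 1.69. That between EPHA4 and PAX3 was 1.17 and that within EPHA4 -0.014. With balanced counts, WNT6/IHH with EPHA4 was 1.24, WNT6/IHH with PAX3 1.08 and within EPHA4 -0.15. With domains from the CTCF siRNA list, where WNT6 and IHH lie in different TADs (their union was used) and EPHA4 and PAX3 in the same one, WNT6/IHH with EPHA4 and WNT6/IHH with PAX3 are 1 quantity, 1.53, and within the TAD of the EPHA4 5′ end the change was 0.070 in place of -0.11, since that TAD is 222.42 to 223.46 Mb and contains PAX3. The contacts between EPHA4 and PAX3 could not be given with that list because both 5′ ends lie in 1 TAD. For the other differences the cause was not tested. Depth limits the direct contacts between gene windows, where the control map had 0 to 6 contacts for the pairs that span a boundary.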
